A study of Mus musculus with 8 samples.

Results

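The urea cycle and amino acid catabolism genes described here are 39 mouse genes, listed by name for their enzyme or transporter function. Of these, 38 were matched by symbol to the 20894 genes of the count table, and Gpt2 was not analysed here. 36 passed the low-count filter and were tested. The other 2, Sdsl (0 to 7 counts in a library) and Fah (0 to 11 counts), did not pass it. RNA was sequenced from livers of wild-type mice killed after a daytime fast. All mice carried the same kind of vector, an AAV8 adeno-associated virus with the hepatocyte-active TBG promoter. The vector carried POLR2G, a subunit of RNA polymerase II, in the POLR2G group and green fluorescent protein in the GFP control group, with 4 libraries in each. The sources used here do not give the age or sex of the animals. No label links a library to a particular mouse, and the p-values therefore reflect the variation among libraries, which may in part be technical.

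The liver is the main site at which amino nitrogen is removed from the body. Transaminases pass the amino group to glutamate, glutamate dehydrogenase and glutaminase release it as ammonia, and the urea cycle of periportal hepatocytes, those around the portal vein, turns the ammonia into urea. The carbon skeletons feed glucose synthesis, ketone bodies and the tricarboxylic acid cycle, which makes these genes part of the liver's response to fasting. Aromatic amino acids, tryptophan, proline, lysine and glycine each have their own breakdown route.

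Library totals ran from 14159056 to 22165491 estimated counts. Members made up 1.68% to 2.01% of GFP control counts and 1.6% to 1.95% of POLR2G counts, so their share of the transcripts overlapped between the groups. For Polr2g, GFP control libraries held 213 to 258 counts and POLR2G libraries 38649 to 54553, so that each matched its label. Of the 10 hepatocyte markers checked, all were found in every library, and their summed level was 131400.2 to 153869 CPM among GFP control and 123774 to 139914 CPM among POLR2G libraries. CPM stands for counts per 1000000 counts, scaled here with the TMM factors of edgeR. Summed markers of Kupffer, endothelial, stellate, bile duct, lymphoid, neutrophil, erythroid and acinar cells overlapped between the groups. Because these are bulk samples, fewer cells of a type and less RNA per cell cannot be told apart. Some members that liver is known to express strongly held few counts, such as Fah, Glud1 (148 to 341) and Otc (206 to 450), and these have several annotated coding transcripts. Whether their values cover all transcripts was not tested, so the number of coding transcripts in GENCODE M21 is given below beside the members described in most detail. The other tested members with several are Kmo, Afmid, Haao, Pcbd1, Hgd, Oat, Aass and Glud1 (2 each), Kynu and Sds (3 each), Gstz1 (4), Prodh2, Ddo, Slc38a4 and Slc7a2 (5 each) and Asl and Prodh (6 each).

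No member passed the threshold of an edgeR adjusted p of 0.05 over the 10390 genes tested, at which 0.0385% of all genes were called. The smallest adjusted p was 0.131, for Gpt. At an unadjusted edgeR p under 0.05, 6 of the 36 tested members (16.7%) were higher in the POLR2G libraries and 0 were lower, against 4.2% higher and 4.1% lower among all genes tested. The same 6, Gpt, Otc, Agxt2, Acmsd, Qdpr and Aldh4a1, were the members whose POLR2G libraries all lay above all GFP control libraries. That pattern was seen in 2.83% of all genes, and the opposite pattern in 2.68% of all genes and 0 members. The members were chosen with earlier results of these data known, so these contrasts with all genes do not test them as a set. DESeq2 called 4 of these 6 at an adjusted p under 0.05, where it called 1.3% of all genes, and limma-voom called 0 members. Of the 36 members, 24 had a higher mean in the POLR2G libraries and 12 a lower one (49.3% of all genes tested had a higher mean). The median log2 fold change was 0.0516, against −0.0031 over all genes tested. Scaling by library totals only turned this split to 15 higher (41.7%) and the median to −0.0188, with the median of all genes at −0.079. On that scaling the members whose groups did not overlap numbered 4, and at an unadjusted p under 0.05 there were 5 higher and 1 lower. The matching shares of all genes on that scaling are not given here, so these counts describe the members only. Without POLR2G replicate 1 the median was 0.0974, and without GFP control replicate 2 it was 0.091. In each of the 8 fits that left out a single library, Gpt, Otc, Agxt2, Acmsd and Qdpr kept an unadjusted p under 0.05, while Aldh4a1 did so in 2. These fits share most libraries with the full fit in which the 6 were picked, so they are no independent test of them. The share of all genes that kept an unadjusted p under 0.05 is not given here. Other members reached that p in some of these fits. Lower were Glud1 and Hpd without GFP control replicate 2, Hpd without POLR2G replicate 3 and Slc7a2 without POLR2G replicate 4. Higher were Amt without GFP control replicate 4, Slc25a13 and Agxt without POLR2G replicate 3, and Agxt without the unnumbered POLR2G library.

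**Figure D1:**
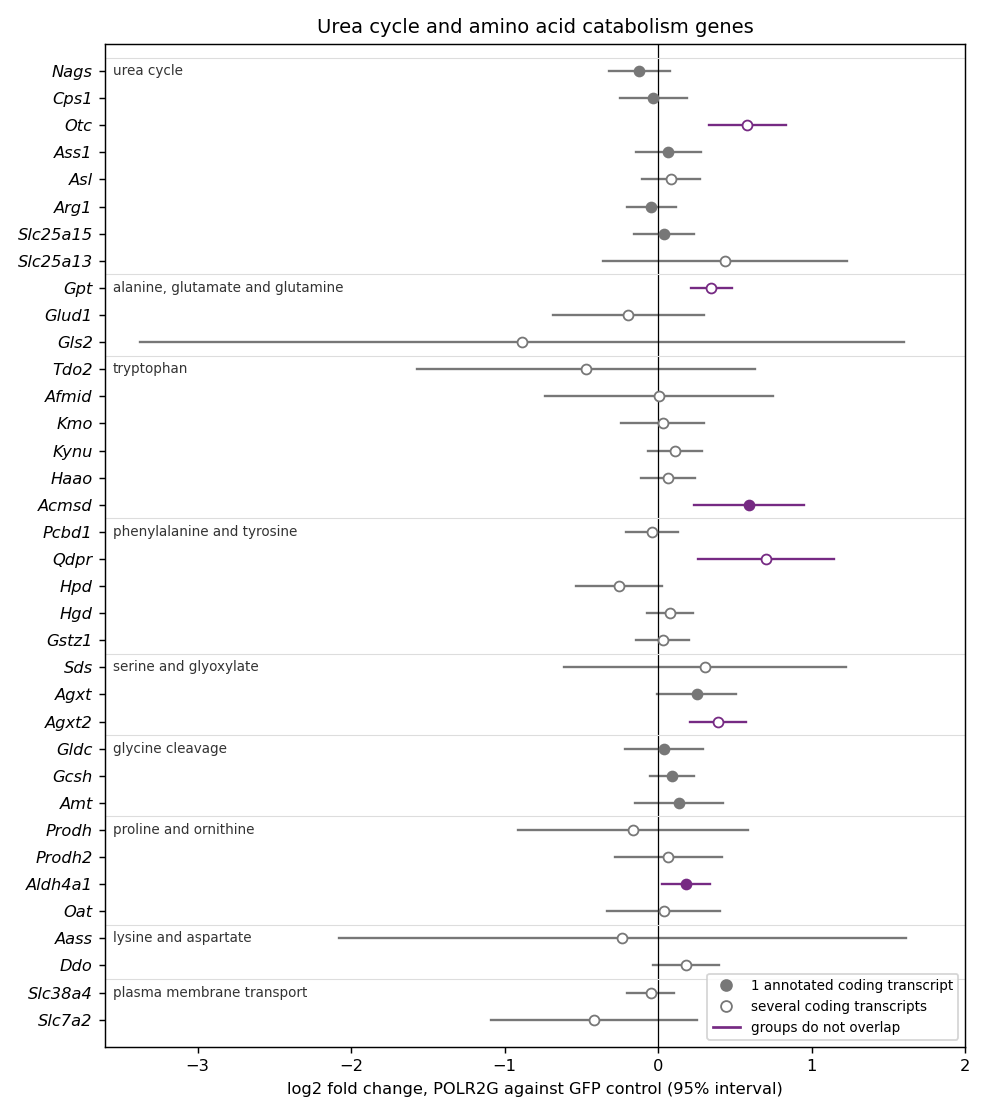
Log2 fold change of each of the 36 tested members, POLR2G against GFP control, with its 95% interval from edgeR (x axis), ordered by role (y axis). Filled points have 1 annotated coding transcript and open points several. The 6 coloured members, from Aldh4a1 at 0.18 to Qdpr at 0.70, are those whose groups do not overlap.

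Among the urea cycle genes, Otc alone of 8 tested members had groups that did not overlap. Otc (ENSMUSG00000031173; GRCm38 chromosome X, 10252305 to 10321024, plus strand; 2 coding transcripts) encodes ornithine transcarbamylase, which joins carbamoyl phosphate to ornithine inside mitochondria. It measured 14.5, 15.3, 13.3 and 13.6 CPM in GFP control replicates 1 to 4. In POLR2G replicates 1, 3 and 4 it measured 21.7, 17.7 and 21.2 CPM, and in the unnumbered POLR2G library 24.1 CPM. That library's number appears in no label, and it is used as a member of its group only. The lowest POLR2G library thus stood above the highest GFP control library. The mean was 1.5-fold higher (14.2 ± 0.899 against 21.2 ± 2.64 CPM, SD, n = 4 each; log2 fold change 0.58, SE 0.110, higher in 4 of 4 POLR2G libraries, edgeR adjusted p = 0.164). The exact two-sided permutation test gave p = 0.0286, which is as small as 4 against 4 libraries can give. Groups that do not overlap always give this value, so for Otc and the other such members below it adds nothing to that pattern. DESeq2 gave an adjusted p of 0.0026, and over all 18 alternatives of the fit the adjusted p ran from 0.0026 to 0.573.

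The other enzymes of the cycle had overlapping groups. Cps1, the carbamoyl phosphate synthetase that commits ammonia to the cycle, measured 5803.7, 4786.7, 5971.2 and 5789.3 CPM in GFP control replicates 1 to 4. It measured 4734.3, 5651.8 and 5678.4 CPM in POLR2G replicates 1, 3 and 4 and 5816.5 CPM in the unnumbered library. In each group a single library was low, GFP control replicate 2 and POLR2G replicate 1, and the remaining 6 lay within 5651.8 to 5971.2 CPM. The 95% interval of the POLR2G to GFP ratio was 0.842 to 1.14. Ass1, the argininosuccinate synthetase, had an interval of 0.906 to 1.21, and Asl, the lyase that follows it, of 0.931 to 1.21. Arg1, the arginase that releases urea, had an interval of 0.867 to 1.08. Nags, which makes the activator of Cps1, measured 43.0 ± 4.77 and 39.5 ± 1.91 CPM in GFP control and POLR2G libraries (ratio interval 0.801 to 1.05). All 5 intervals include a ratio of 1, and a p above the threshold does not show that the groups were alike.

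The mitochondrial carriers of the cycle differed in spread. Slc25a15, the ornithine carrier, measured 426.2 ± 48.3 and 438.1 ± 16.6 CPM (SD, n = 4 each). Slc25a13, the aspartate-glutamate carrier citrin (2 coding transcripts), measured 29.9, 40.1, 33.3 and 19 CPM in the GFP control replicates. In POLR2G replicates 1, 3 and 4 it measured 47.3, 15.6 and 51.7 CPM, and 50.6 CPM in the unnumbered library. POLR2G replicate 3 was therefore the lowest of all 8 libraries while the other 3 POLR2G libraries were the highest. The log2 fold change was 0.44 (SE 0.353, edgeR adjusted p = 0.813). Without POLR2G replicate 3 Slc25a13 joined the members with an unadjusted p under 0.05.

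Alanine, glutamate and glutamine supply the ammonia. Gpt (ENSMUSG00000022546; chromosome 15, 76695716 to 76699686, plus strand; 4 coding transcripts), the alanine aminotransferase that turns alanine into pyruvate, had the smallest p of the members and ranked 15 by p among all genes. It measured 262.9, 277.4, 276.4 and 293.7 CPM in GFP control replicates 1 to 4. It measured 354.6, 357.3 and 353.6 CPM in POLR2G replicates 1, 3 and 4 and 345.1 CPM in the unnumbered library. The POLR2G libraries were tightly grouped and lay above every GFP control library. The mean was 1.27-fold higher (log2 fold change 0.35, SE 0.0592, 95% ratio interval 1.16 to 1.39, higher in 4 of 4 POLR2G libraries, edgeR adjusted p = 0.131). By exact permutation p was 0.0286, the DESeq2 adjusted p was 2.18e-08, and adjusted p ran from 2.18e-08 to 0.591 over the 18 alternatives. Glud1, the glutamate dehydrogenase, spanned 8.59 to 18.5 CPM among GFP control and 10.1 to 14.5 CPM among POLR2G libraries. Gls2, the liver glutaminase (3 coding transcripts), had 0 counts in GFP control replicate 1 and in the unnumbered POLR2G library and at most 53 elsewhere. No difference was detectable at these counts (log2 fold change −0.89, SE 1.11).

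**Figure D2:**
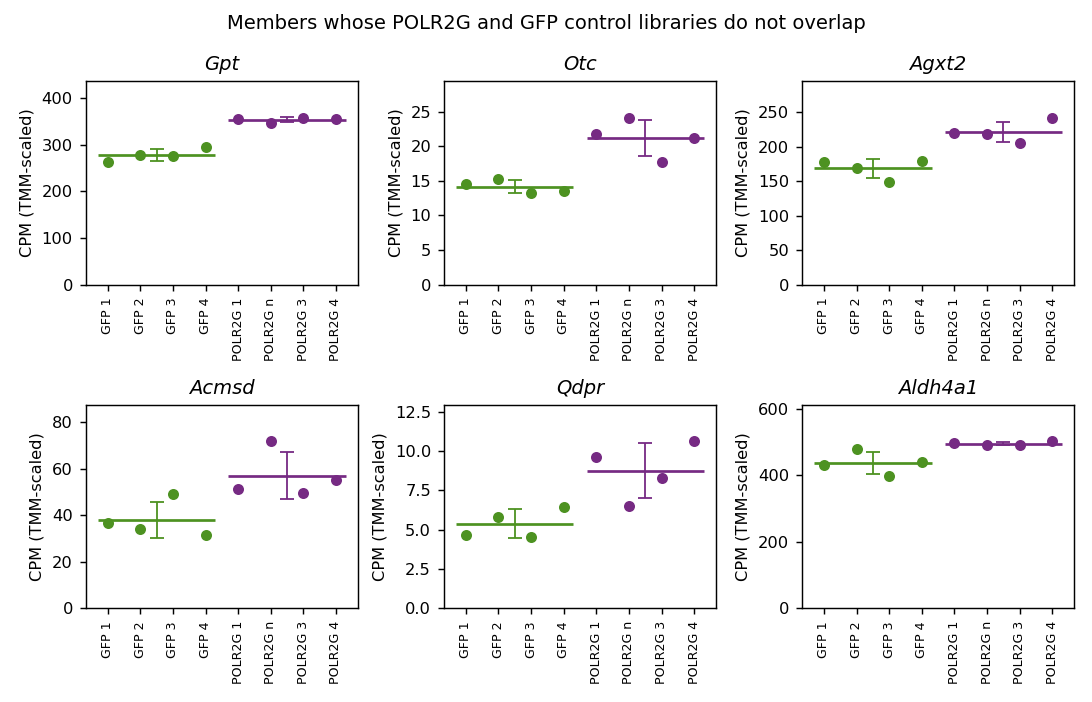
Level of the 6 members whose groups do not overlap, in CPM (y axis, from 0), in each of the 8 libraries (x axis; POLR2G n is the unnumbered POLR2G library). Points are libraries, horizontal lines are group means and bars are 1 SD. The POLR2G libraries of Gpt lie from 345.1 to 357.3 CPM, and Qdpr shows the smallest gap between groups in CPM, from 6.45 to 6.53.

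Tryptophan is broken down through kynurenine, and the branch point near the end of the route decides between NAD synthesis and full oxidation. Acmsd (ENSMUSG00000026348; chromosome 1, 127729413 to 127767978, plus strand; 1 coding transcript) encodes the decarboxylase that diverts the intermediate away from NAD. It measured 36.5, 33.9, 48.9 and 31.7 CPM in GFP control replicates 1 to 4. In POLR2G replicates 1, 3 and 4 it measured 51.1, 49.7 and 54.9 CPM, and in the unnumbered library 71.6 CPM. GFP control replicate 3, the highest of its group, fell just short of POLR2G replicate 3, so the gap between the groups was small. The mean was 1.51-fold higher (37.8 ± 7.70 against 56.8 ± 10.1 CPM, SD, n = 4 each; log2 fold change 0.59, SE 0.159, higher in 4 of 4 POLR2G libraries, edgeR adjusted p = 0.351). Its exons overlap an antisense model, and no source used here says whether the counting used strand. By exact permutation p was 0.0286, the DESeq2 adjusted p was 0.0458, and adjusted p ran from 0.0458 to 0.698 over 19 alternatives. Upstream of Acmsd, the formamidase gene Afmid, the hydroxylase gene Kmo, the hydrolase gene Kynu and the dioxygenase gene Haao had overlapping groups. Their log2 fold changes ran from 0.0039 (Afmid, SE 0.331) to 0.11 (Kynu, SE 0.0783). Exons of Afmid overlap those of the gene Gm20708 on the same strand and of Tk1 on the opposite strand, so its value is uncertain.

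Tdo2, the dioxygenase that opens the tryptophan ring at the first step (2 coding transcripts), varied most between libraries of one group among the members above 10 CPM. It measured 74.4, 87.4, 18.8 and 38 CPM in GFP control replicates 1 to 4. It measured 32.1, 73.8 and 28 CPM in POLR2G replicates 1, 3 and 4 and 24 CPM in the unnumbered library. High and low libraries occurred in both groups (log2 fold change −0.47, SE 0.490, edgeR adjusted p = 0.863). In POLR2G replicate 3 Tdo2 was high where Slc25a13 was low, as the plot of members with a wide spread shows.

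**Figure D3:**
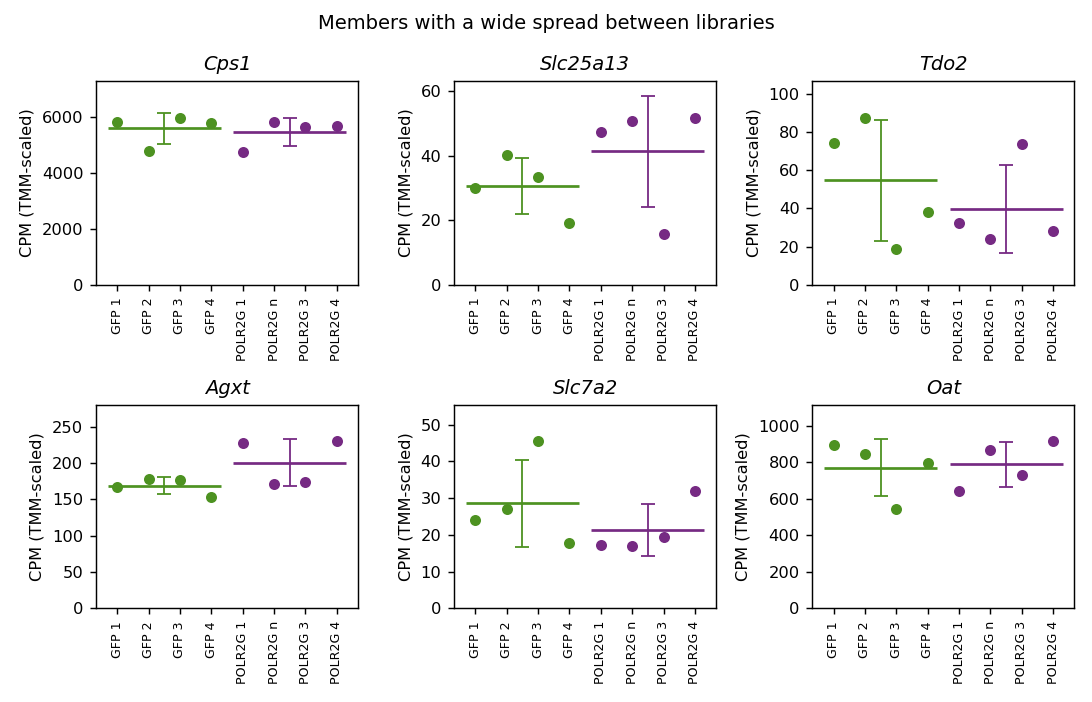
Level of 6 members with a wide spread between libraries, in CPM (y axis, from 0), in each of the 8 libraries (x axis; POLR2G n is the unnumbered POLR2G library). Points are libraries, horizontal lines are group means and bars are 1 SD. POLR2G replicate 3 is low for Slc25a13 (15.6 CPM) and high for Tdo2 (73.8 CPM), and POLR2G replicates 1 and 4 are high for Agxt (227.6 and 229.7 CPM).

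In the breakdown of phenylalanine and tyrosine, Qdpr had the largest positive log2 fold change of the tested members. Its gene is ENSMUSG00000015806 (chromosome 5, 45434021 to 45450236, minus strand), with 8 coding transcripts. It encodes dihydropteridine reductase, which regenerates the cofactor tetrahydrobiopterin. It had 83, 100, 70 and 119 counts in GFP control replicates 1 to 4, or 4.69, 5.80, 4.51 and 6.45 CPM. It had 199, 141 and 186 counts in POLR2G replicates 1, 3 and 4 and 109 in the unnumbered library, or 9.60, 8.26, 10.6 and 6.53 CPM. The unnumbered library lay only just above GFP control replicate 4. The mean was 1.63-fold higher (log2 fold change 0.70, SE 0.197, higher in 4 of 4 POLR2G libraries, edgeR adjusted p = 0.360, exact permutation p = 0.0286). DESeq2 did not call it either (adjusted p = 0.0848, in a range of 0.0848 to 0.710 over 18 alternatives). Its exons too overlap an antisense model.

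The other tested genes of this route had overlapping groups, with a lower mean in the POLR2G libraries for Pcbd1 and Hpd and a higher one for Hgd and Gstz1. Pcbd1, which recycles the same cofactor, measured 210.4 ± 16.3 and 205 ± 11.7 CPM (SD, n = 4 each). Hpd, the dioxygenase that makes homogentisate (3 coding transcripts), spanned 30.5 to 42.3 CPM among GFP control and 24.9 to 33.4 CPM among POLR2G libraries, a log2 fold change of −0.25 (SE 0.125, edgeR adjusted p = 0.646). Its unadjusted p fell under 0.05 without GFP control replicate 2 or without POLR2G replicate 3. Hgd, which opens the homogentisate ring, measured 618.1 ± 24.8 and 651.3 ± 37.1 CPM, and Gstz1, the next isomerase, 746.8 ± 65.9 and 761.6 ± 24.9 CPM. No value of Fah, which ends the route, could be tested.

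The glyoxylate and serine genes had positive log2 fold changes in all 3 tested members. Agxt2 (ENSMUSG00000089678; chromosome 15, 10358532 to 10410153, plus strand; 3 coding transcripts) is a mitochondrial aminotransferase that uses alanine to convert glyoxylate to glycine and also acts on beta-aminoisobutyrate and dimethylarginines. It measured 178.1, 170, 149.6 and 179 CPM in GFP control replicates 1 to 4. In POLR2G replicates 1, 3 and 4 it measured 220.2, 206.1 and 242.3 CPM, and in the unnumbered library 218.7 CPM. The gap between 179 and 206.1 CPM that separated the groups was wider than the SD of either. The mean was 1.31-fold higher (169.2 ± 13.7 against 221.8 ± 15.1 CPM, SD, n = 4 each; log2 fold change 0.39, SE 0.0803, higher in 4 of 4 POLR2G libraries, edgeR adjusted p = 0.198). By exact permutation p was 0.0286, the DESeq2 adjusted p was 0.00137, and adjusted p ran from 0.00137 to 0.543 over 18 alternatives. Its exons overlap those of the gene model Gm21973 on the same strand, which was not analysed here, so its value is uncertain.

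Agxt, the peroxisomal alanine-glyoxylate aminotransferase of hepatocytes (1 coding transcript), was split within the POLR2G group. It measured 167.1, 178.5, 176.5 and 153 CPM in GFP control replicates 1 to 4. POLR2G replicates 1 and 4 held 227.6 and 229.7 CPM, while replicate 3 and the unnumbered library, at 174.2 and 171.1 CPM, lay inside the GFP control range (log2 fold change 0.25, SE 0.114, edgeR adjusted p = 0.605). Sds, the serine dehydratase of periportal hepatocytes, spanned 1.92 to 7.93 CPM among GFP control and 3.05 to 6.85 CPM among POLR2G libraries. Its log2 fold change was 0.31 (SE 0.408).

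Starts of 30 members were matched in the RefSeq promoter windows of GRCm38.p6, as 35 windows. Otc and Agxt2, whose groups did not overlap, are shown as the 250 bases before the start, 5′ to 3′ on the gene's strand, so that the sequence upstream of the genes that lay apart can be read beside their values. Gpt has no entry. Capitals mark a match to any of the motifs searched on both strands, TTGCGCAA (the C/EBP palindrome), TGACGTCA (the full cAMP response element) and CAAAGTCCA (an HNF4A core). The windows are chrX:10252055-10252304 for Otc and chr15:10358283-10358532 for Agxt2, both on the plus strand.
Otc: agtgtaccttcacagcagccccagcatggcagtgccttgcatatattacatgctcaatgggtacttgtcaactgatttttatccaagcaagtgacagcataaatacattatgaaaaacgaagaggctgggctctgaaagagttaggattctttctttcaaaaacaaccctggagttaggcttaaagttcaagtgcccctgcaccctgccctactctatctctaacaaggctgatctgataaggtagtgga
Agxt2: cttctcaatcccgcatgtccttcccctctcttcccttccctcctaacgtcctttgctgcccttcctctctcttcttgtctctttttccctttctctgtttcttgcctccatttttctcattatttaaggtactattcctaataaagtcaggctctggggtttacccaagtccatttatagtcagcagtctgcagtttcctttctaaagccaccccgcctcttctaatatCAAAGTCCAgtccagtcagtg
The HNF4A core was found in Agxt2 among the members, in 2 overlapping windows, and in 0.384% of all 32851 windows of this length. TTGCGCAA was in 0 of the 35 member windows and in 0.164% of all windows, and TGACGTCA in 0 and 1.55%. A match here describes letters and not a bound site.

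Proline and ornithine both end in glutamate through Aldh4a1 (ENSMUSG00000028737; chromosome 4, 139622866 to 139649690, plus strand; 1 coding transcript), a mitochondrial dehydrogenase. It measured 429.4, 479.4, 398.8 and 440.9 CPM in GFP control replicates 1 to 4. In POLR2G replicates 1, 3 and 4 it measured 497.1, 490.6 and 501.4 CPM, and in the unnumbered library 491.2 CPM. GFP control replicate 2 came closest to the POLR2G libraries. The mean was 1.13-fold higher (log2 fold change 0.18, SE 0.0691, higher in 4 of 4 POLR2G libraries, edgeR adjusted p = 0.513, exact permutation p = 0.0286). DESeq2 did not call it (adjusted p = 0.203, in a range of 0.203 to 0.805 over 19 alternatives). Its exons overlap those of the gene model Gm21969 on the same strand, not analysed here, so its value is uncertain. The oxidases that feed it, Prodh and Prodh2, had log2 fold changes of −0.16 (SE 0.333) and 0.066 (SE 0.155). Oat, the ornithine aminotransferase concentrated near the central vein, ranged from 545 to 894.5 CPM in the GFP control, with replicate 3 lowest, and from 645.8 to 914.6 CPM in the POLR2G libraries.

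Of the glycine cleavage system, Gldc, the decarboxylase, measured 117.1 ± 14.4 and 120.2 ± 14 CPM, and Gcsh, the lipoyl carrier protein, 105.5 ± 4.42 and 112.2 ± 5.94 CPM (SD, n = 4 each). Amt, the aminomethyltransferase, measured 26.5, 31.3, 23.7 and 37.1 CPM in the GFP control replicates and 31.9 to 33.8 CPM in the POLR2G libraries. The POLR2G libraries of Amt fell inside the GFP control range. All 3 genes have 1 coding transcript, and their log2 fold changes ran from 0.0385 to 0.14.

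Aass, the enzyme that starts lysine breakdown, spanned 0.596 to 0.709 CPM among GFP control and 0.0483 to 1.2 CPM among POLR2G libraries. It had 1 to 21 counts, and no difference was detectable at these counts. Ddo, the peroxisomal D-aspartate oxidase, measured 25.2 ± 2.03 and 28.6 ± 2.92 CPM (log2 fold change 0.18, SE 0.0962, edgeR adjusted p = 0.675). Among transporters, Slc38a4, a sodium-coupled neutral amino acid transporter of the hepatocyte surface, had a 95% ratio interval of 0.869 to 1.07. Slc7a2, a cationic amino acid transporter, spanned 17.8 to 45.4 CPM among GFP control and 16.9 to 31.8 CPM among POLR2G libraries. Both transporters had overlapping groups.

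Levels can be set side by side per length for the 11 tested members with 1 coding transcript. Per kilobase of the longest coding transcript, the GFP control mean was 1985 CPM for Ass1, 1116.5 for Arg1 and 1005.9 for Cps1, so these 3 urea cycle genes stood far above the rest. Aldh4a1 (129.3), Slc25a15 (124.3) and Agxt (108.7) formed a middle group on that scale, followed by Gcsh (73.1) and Gldc (31.1). Nags (21.2), Amt (14.2) and Acmsd (13.9) were lowest. In the POLR2G libraries Ass1, Arg1 and Cps1 measured 2079.6, 1080.9 and 984.7 CPM per kilobase, in the same order. Of these 11 members, 2 had an unadjusted p under 0.05, both higher, and 8 had a higher mean. Among all genes tested, 4.2% were higher at that p and 49.3% had a higher mean.

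The enzymes and carriers that work beside the members were given by lists. Of 14 tested partners in ammonia, glutamine and nitrogen handling, 0 passed the edgeR threshold, and 3 were higher and 1 lower at an unadjusted p under 0.05 (median log2 fold change 0.0416), where 4.2% of all genes tested were higher and 4.1% lower. DESeq2 called 2 of the 14, Rhbg and Slc38a3, both higher, against 1.3% of all genes, and limma-voom called 0. Rhbg, an ammonium transporter of pericentral hepatocytes with 1 coding transcript, had a log2 fold change of 0.88 (SE 0.162, edgeR adjusted p = 0.152) and did not overlap between groups. Slc38a3, a glutamine transporter, was at 0.24 (SE 0.0681), and Asrgl1, an asparaginase, at 0.43 (SE 0.124), both also without overlap. POLR2G libraries all above the GFP control libraries were seen in 2.83% of all genes tested. The lower partner at that unadjusted p, chosen after its value was seen, was the mitochondrial deacylase Sirt5, at −0.25 (SE 0.0850).

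Of 12 tested aromatic and tryptophan partners, 0 passed the threshold and 2 were higher at an unadjusted p under 0.05 (median 0.0843), against 4.2% of all genes. Gchfr, the feedback regulator of tetrahydrobiopterin synthesis, was at 0.22 (SE 0.0616), and its POLR2G libraries lay above the GFP control libraries. So did those of Spr, a reductase of the same pathway, at 0.13 (SE 0.0592), a pattern seen in 2.83% of all genes tested. Aadat, an aminotransferase for aminoadipate and kynurenine, was at 0.42 (SE 0.177) with overlapping groups. Of 12 tested glycine, glyoxylate, proline and lysine partners, 0 passed and 3 were higher at an unadjusted p under 0.05 (median 0.096), against the same 4.2%. They were the lysine breakdown genes Aldh7a1 (0.79, SE 0.305), Gcdh (0.24, SE 0.108) and Dhtkd1 (0.17, SE 0.0749), and their groups overlapped. DESeq2 and limma-voom called 0 in either list.

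**Figure D4:**
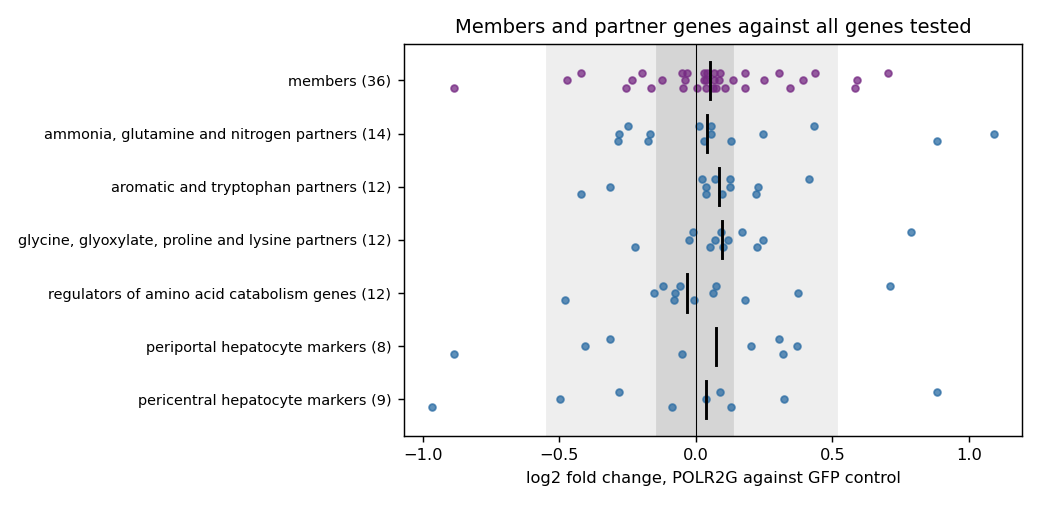
Log2 fold change, POLR2G against GFP control, of each tested member and partner gene (points, x axis) by list (y axis, number tested in brackets), with the list median as a black bar. The dark and light bands hold the middle 50% and 90% of all 10390 genes tested. List medians lie between −0.0325 and 0.096, inside the dark band of −0.1425 to 0.1354.

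Of 12 tested regulators of these genes, 0 passed the threshold, and 1 was higher and 1 lower at an unadjusted p under 0.05 (median −0.0325), against 4.2% and 4.1% of all genes. Cebpa, a transcription factor of hepatocyte metabolism, was at 0.71 (SE 0.213, edgeR adjusted p = 0.388), from 46.5 ± 12.6 to 76.1 ± 18.9 CPM (SD, n = 4 each), with overlapping groups. Ppargc1a, a coactivator of fasting genes, was at −0.48 (SE 0.134, edgeR adjusted p = 0.360), and its POLR2G libraries all lay below the GFP control libraries. The same was seen in 2.68% of all genes tested. Foxa2, a forkhead factor, was at 0.37 (SE 0.173). DESeq2 and limma-voom called 0 of the regulators too.

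Zonation markers went both ways. Of 8 tested periportal markers, which include Sds and Gls2, 3 were higher and 0 lower at an unadjusted p under 0.05, against 4.2% and 4.1% of all genes, and 4 had a lower mean. The 3 were Hal (0.32, SE 0.0708), the histidine ammonia-lyase, Cyp2f2 (0.20, SE 0.0673), a cytochrome P450, and Aldh1b1 (0.37, SE 0.133), an aldehyde dehydrogenase. Of 9 tested pericentral markers, which include Oat, 2 were higher and 2 lower at that p. The higher ones were Rhbg, at 0.88 (SE 0.162), and Cyp1a2, a cytochrome P450 (0.32, SE 0.114), which was named after its value was seen and whose groups overlapped. The lower ones, Lhpp at −0.50 (SE 0.112) and Slc1a4 at −0.97 (SE 0.276), lay below the GFP control in all POLR2G libraries. That was also the case for 2.68% of all genes tested. None of these zonation markers passed the edgeR threshold or that of limma-voom. DESeq2 called Hal and Rhbg higher and Lhpp lower, where it called 1.3% of all genes tested. The part of zonation in the values of the members was not tested.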

How the data were processed

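The members and the gene lists were chosen with earlier results of these data known. The authors deposited 1 table of estimated counts per gene as whole numbers, not normalized. Salmon 1.2.1, GRCm38 and mm10 are named in the submitters' processing notes without their roles. The annotation and the way transcripts became genes are not stated in the sources used here. Per the labels' protocols, libraries were poly-A selected and strand-specific. Columns were assigned by library name, and 1 POLR2G column with a number found in no label was kept as an unnumbered library. Symbols were found for 20817 of 20894 identifiers, and gene models are from GENCODE M21 on GRCm38. Exons of Gls2, Gstz1, Sds, Nags and Slc7a2 overlap those of gene models on the opposite strand. No pair of libraries in a group was close enough to be a duplicate (chi-square divided by its degrees of freedom was 12.9 or more).

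Groups were compared with edgeR 4.0.16 in R 4.3.3. Genes were filtered with filterByExpr (min.count 10, min.total.count 15) and scaled with TMM, and a two-sided quasi-likelihood test with a group term was run on 10390 genes with Benjamini-Hochberg adjustment. The SE is the log2 fold change divided by the square root of F, and 95% intervals use the fit's degrees of freedom. Exact permutation tests of log2 CPM (prior count 2) used all 70 arrangements. The alternatives used other scalings, low-count filters, DESeq2 1.42.0, limma-voom (limma 3.58.1), a replicate block and fits without each library, and 2 of them were chosen after seeing the data. The steps were tested on simulated data. The text names all members, and in each partner list the 3 genes with the smallest p that are not members. Sirt5 and Cyp1a2 were named in addition, after their values were seen.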

Additional observations from a re-analysis of the deposited data

Results flagged for a closer look

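A single library stood far from the other 3 of its group for 5 members, by a gap that passes Dixon's 95% critical value for 4 samples (0.829 of the group's range). This was seen in 6 of the 72 groups of 4 libraries examined (36 members, 2 groups each), and chance flags about 1 in 20. Cps1 was low in GFP control replicate 2 (4787 CPM, others 5789 to 5971) and in POLR2G replicate 1 (4734 CPM, others 5652 to 5817). In POLR2G replicate 3 Slc25a13 was low (15.6 CPM, others 47.3 to 51.7) and Tdo2 was high (73.8 CPM, others 24 to 32.1). Gcsh was low in GFP control replicate 3 (98.9 CPM, others 106.8 to 108.1). Slc7a2 was high in POLR2G replicate 4 (31.8 CPM, others 16.9 to 19.3).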

How the results depend on the processing

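Of 657 member values recomputed, 615 kept their direction and their side of the threshold, 4 passed it under DESeq2 (Otc, Gpt, Agxt2 and Acmsd) and 38 changed sign, none of them past the threshold. The number of genes called was 4, and it was 135 under DESeq2, 1 with library totals only and 1 to 6 without 1 library each. The 3 same-numbered pairs of libraries had correlations of their deviations of 0.0642, −0.0245 and 0.0361, so the numbers were not taken to pair them. With the replicate block, on 6 libraries, 2 genes and 0 members were called, and with the same libraries and no block 1 gene and 0 members (chosen after seeing the data). Members past the threshold numbered 4 under DESeq2 and 0 in all other fits. With library totals only, 15 members had a higher mean and the median was −0.0188. Without each library in turn the median ran from 0.0406 to 0.0974. Among genes with 1 coding transcript only (chosen after seeing the data), 3 genes were called. Of 11 members in that fit, 8 had a higher mean, 2 an unadjusted p under 0.05 and 2 groups that did not overlap. The matching shares of the 2973 genes of that fit are not given here.

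Signs changed with library totals only for Ass1 (−0.0117), Slc25a15 (−0.0393), Afmid (−0.0949), Kmo (−0.0513), Haao (−0.0115), Gstz1 (−0.0414), Gldc (−0.0348), Prodh2 (−0.0123) and Oat (−0.0253). With the replicate block they changed for Gls2 (0.5355), Tdo2 (0.0444), Gldc (−0.0636) and Prodh (0.1028), and with the same 6 libraries and no block for Tdo2 (0.0232), Gldc (−0.0557), Prodh (0.0656) and Aass (0.1209). Without 1 library each, the log2 fold change crossed 0 for Cps1 (−0.0984 to 0.0327), Slc25a15 (−0.0205 to 0.1123), Afmid (−0.2488 to 0.2392), Kmo (−0.0469 to 0.1102), Pcbd1 (−0.0787 to 0.0134), Gstz1 (−0.0331 to 0.0639), Gldc (−0.0408 to 0.1087), Prodh (−0.3423 to 0.0453), Prodh2 (−0.0362 to 0.2118), Oat (−0.0988 to 0.1219) and Aass (−0.9192 to 0.1602). The cause was not tested. Low counts limit Gls2, Aass, Fah and Sdsl, for which no difference of the sizes seen elsewhere could be detected.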
